A study of Mus musculus with 16 samples.

Results

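Untreated cells of a mouse mammary tumour line homozygous for the A342E substitution in Pygo2 were compared with untreated cells of a line with wild-type Pygo2. The comparison took all 8 untreated libraries among the 16 of the series, chosen by their labels. Line 828 (Pygo2 A342E/A342E knockin, called AE) gave 4 of them and line 631 (Pygo2 +/+, called WT) gave the other 4. In each line 2 libraries came from cells kept untreated for 3 days beside a Wnt3a experiment, and 2 from cells kept untreated for 4 days beside a TGFb experiment, so day and experiment cannot be told apart. Both lines carry the PyMT transgene in the MMTV-PyMT (FVB/N) strain, in which a mouse mammary tumour virus promoter drives the polyoma middle T oncogene in mammary epithelium. The treated libraries of the same lines received TGFb at 2 ng/ml for 4 days or Wnt3a at 100 ng/ml for 3 days, and are used below only for a second comparison of the lines. Each genotype was represented by 1 line, so genotype and line cannot be told apart in any value given here. The submitters call the 2 libraries of a group biological duplicates without saying how they were grown, and p-values measure the spread between these libraries.

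Pygo2 is a nuclear adaptor of canonical Wnt signalling. Bcl9 links it to beta-catenin on the TCF and LEF factors at target genes, and its PHD finger binds the tail of histone H3 methylated at lysine 4. The mammary duct has an inner luminal layer, whose progenitors carry Kit and Elf5 and give rise to milk-producing cells, and an outer basal layer of contractile cells that carry keratins 5 and 14. The series title frames its question as the part that the contact between Pygo2 and histones plays in the loss of differentiation and in tumour progression. The substitution named in the labels falls in the PHD finger. In transcript Pygo2-201 (GENCODE M21), codon 342 of 405 lies in exon 3 of 3, on the plus strand of GRCm38 at chr3:89433320-89433322, and is the alanine codon GCC. The line below gives the reference strand around it with the codon in capitals, to show where the lines differ by design. Gene counts do not show which base a library carries, so they do not check this label.
Pygo2 codon 342 with flanks: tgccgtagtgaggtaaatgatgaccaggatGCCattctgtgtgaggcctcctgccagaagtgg

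The deposited counts summed to 20530538 to 26191846 per untreated library. Levels below are in CPM, counts scaled to a common library size with TMM factors, and values per library are listed in the order 3-day replicates 1 and 2, then 4-day replicates 1 and 2. Means are given with their SD over the 4 libraries of a line (n = 4), from WT to AE. Log2 fold changes are AE over WT, with their SE, from edgeR's quasi-likelihood test with the day as a covariate, and p-values are Benjamini-Hochberg adjusted over all genes tested. Where a line had 0 counts the fold is a lower bound against 3 counts over its 4 libraries, and where it had 1 to 3 counts the ratio is given with an interval for counting error only. The lines separated on the first component of a principal component analysis of log2 CPM, with 79.4% of the variance. The second, with 14.97%, placed WT 3-day replicate 1 (at 62.5) and AE 3-day replicate 2 (38.7) on one side and WT 4-day replicate 2 (-45.1) farthest on the other, with the remaining libraries between -19.7 and 4.12. The SD over genes of the log2 ratio of the 2 replicates was 0.772 and 0.666 in WT and AE at 3 days and 0.288 and 0.185 at 4 days. The 4-day libraries were thus the tighter ones. Against the GC content of the transcripts these ratios had a Spearman rho of -0.76 and 0.67 in WT and AE at 3 days. At 4 days the rho was -0.74 and 0.51. The log2 fold change of AE over WT itself had a rho of 0.36 with GC content over 12205 genes. It was 0.46 in the 3-day libraries alone and 0.20 in the 4-day libraries alone. These values describe genes that are not independent. Among the genes named below, AE 3-day replicate 1 lay far from the other AE libraries in 19 of 40 such cases and WT 3-day replicate 1 from the other WT libraries in 11, by the gap rule given with the values at the end.

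The lines differed in a large share of the genes they express. Of 12648 genes tested, 6146 passed an adjusted p of 0.05 (48.6%), 3195 of them higher in AE (25.3%) and 2951 lower (23.3%). Of these, 2361 were at least 2-fold higher (18.7%) and 1527 at least 2-fold lower (12.1%). The 4 AE libraries did not overlap with the 4 WT libraries in 5437 of the genes that passed (43.0% of all tested), and in 5865 whether they passed or not (46.4%). Leaving out WT 3-day replicate 1 gave 6613 calls and leaving out AE 3-day replicate 2 gave 5483. With offsets for GC content and transcript length in each library, 3007 genes passed as higher and 5128 as lower, so the higher share of the calls went from 52.0% to 37.0%. That setting moved the median log2 fold change of all genes by -0.23, and counts under it are read against this shift. The 48 gene lists below are therefore read against the shares of all genes just given.

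**Figure D1:**
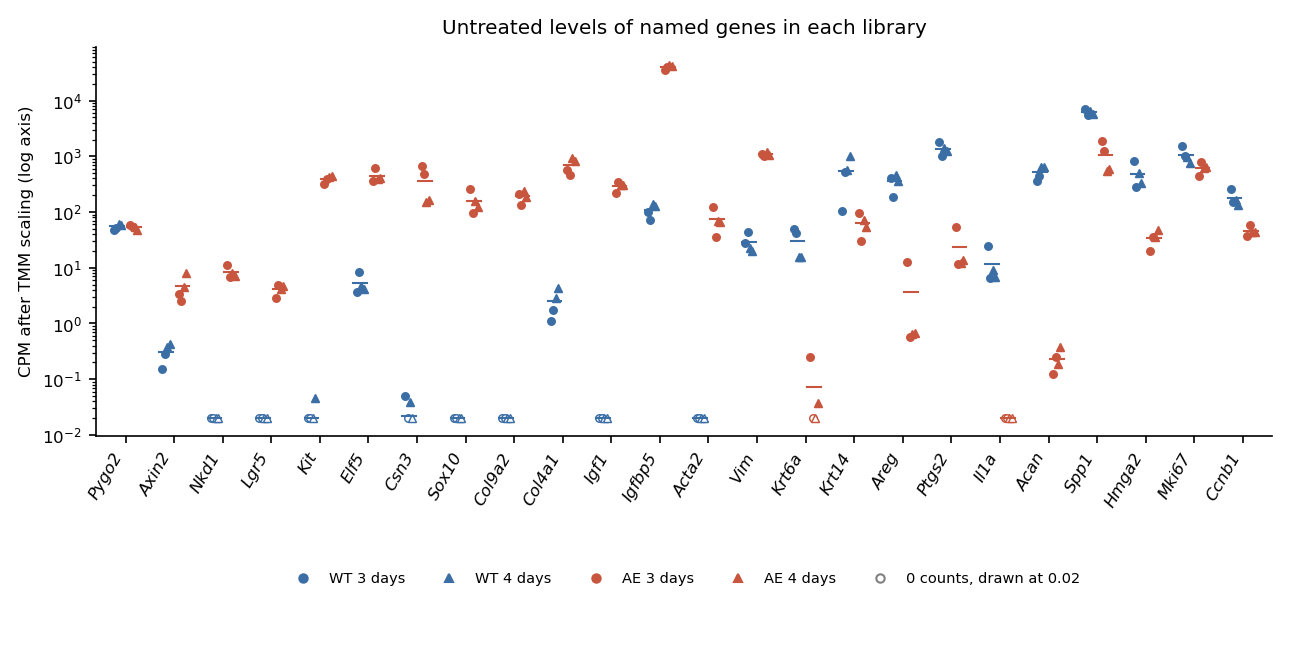
Levels in CPM (log axis) of 24 genes in each of the 8 untreated libraries, WT in blue and AE in red, circles for 3 days and triangles for 4 days. Short lines mark the mean of 4 libraries, and open symbols are libraries with 0 counts. Every gene except Pygo2 and Mki67 has its 4 AE libraries on 1 side of its 4 WT libraries.

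**Figure D2:**
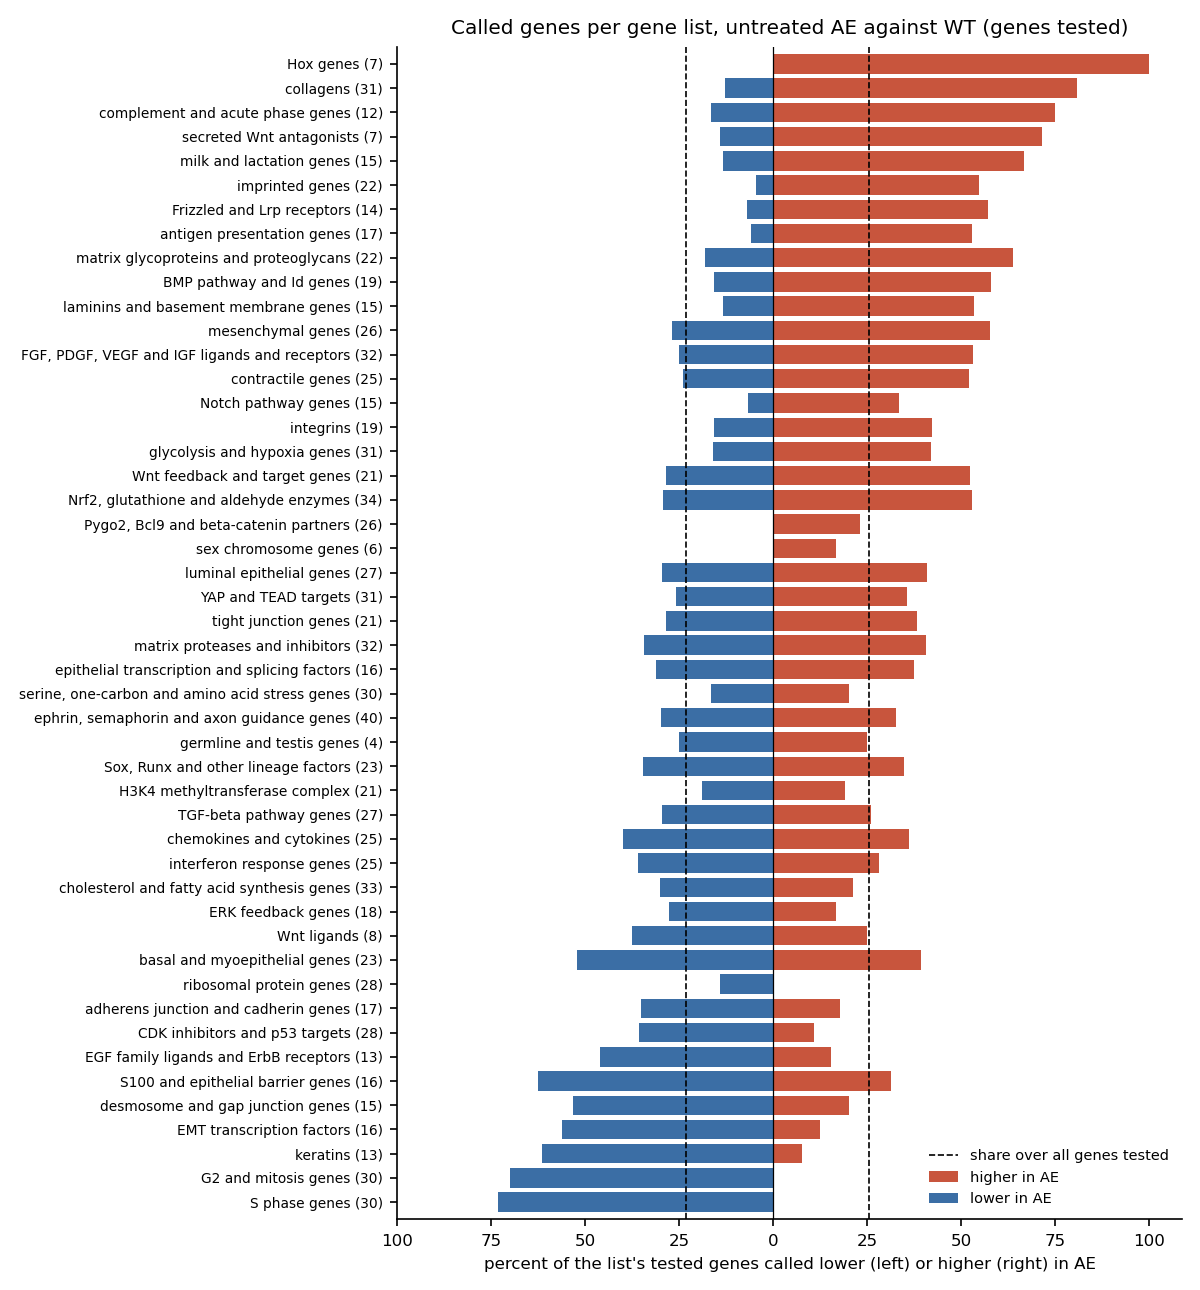
Percent of the tested genes of each of 48 gene lists that passed as higher (red, right) or lower (blue, left) in AE, with the number tested in brackets. Dashed lines mark the shares over all genes tested, 25.3% higher and 23.3% lower. Hox genes stand at the top with 7 of 7 higher, followed by collagens with 25 of 31. S phase genes stand at the bottom with 22 of 30 lower.

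No difference in Pygo2 itself passed the test. Pygo2 read 48.3, 52.5, 61.9 and 58.5 CPM in the WT libraries and 57.6, 54.0, 53.8 and 47.4 CPM in the AE libraries. The libraries of the lines overlapped, and the difference was a log2 fold change of -0.05 ± 0.14 (adjusted p = 0.78). In the list of Pygo2, Bcl9 and beta-catenin partners, 6 of 26 tested genes passed as higher in AE and 0 as lower. That is 23.1% called, below the 48.6% called among all genes, of which 25.3% were higher. The list had a median log2 fold change of 0.27 against 0.02 over all genes. With the GC and length offsets the same list gave 6 higher and 10 lower, so its direction depends on that setting. Bcl9, which holds Pygo2 to beta-catenin, went from 22.8 ± 4.1 to 52.4 ± 9.6 CPM (log2 fold change 1.196 ± 0.15, adjusted p = 3.3e-04). The TCF factors that beta-catenin binds on DNA were also higher, Tcf7l2 from 28.3 ± 7.5 to 72.7 ± 7.1 CPM and Tcf7l1 from 7.35 ± 1.8 to 29.7 ± 6.5 CPM. Tle4, a co-repressor of TCF factors, went from 1.63 ± 0.62 to 12.3 ± 3.4 CPM (log2 fold change 2.94 ± 0.34, adjusted p = 2.0e-04). Beta-catenin itself (Ctnnb1) went from 1636 ± 188 to 1227 ± 177 CPM and did not pass (adjusted p = 0.078). Among subunits and erasers around histone H3 lysine 4 methylation, 4 passed as higher and 4 as lower of 21 tested. That is 38.1% called, also below the share of all genes. With the GC and length offsets 2 passed as higher and 13 as lower. The demethylase Kdm1a was lower, from 148 ± 6.2 to 69.1 ± 5.0 CPM, while the demethylase Kdm5c, encoded on the X chromosome, was higher, from 142 ± 18 to 301 ± 29 CPM. The core subunit Dpy30 was lower, from 59.2 ± 6.2 to 35.5 ± 8.3 CPM. Dpy30 did not pass without WT 4-day replicate 1 (log2 fold change -0.73, adjusted p = 0.0502).

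Genes of the Wnt pathway differed in both directions without any added Wnt. Of 21 tested feedback and target genes 11 passed as higher in AE and 6 as lower, with a median log2 fold change of 3.45. Nkd1 had 0 counts in all 4 WT libraries and read 11.1, 6.89, 7.96 and 7.22 CPM in the AE libraries. Nkd1, an intracellular inhibitor that beta-catenin induces, was thus detected in every AE library and in no WT library, at least 252-fold higher in AE (adjusted p = 7.8e-05). Axin2 read 0.151, 0.289, 0.383 and 0.421 CPM in the WT libraries and 3.45, 2.52, 4.58 and 7.93 CPM in the AE libraries. Axin2, the scaffold most often used to read out the pathway, was low in both lines and lower in each WT library than in any AE library, a log2 fold change of 3.84 ± 0.33 (adjusted p = 4.1e-05). Lgr5, the R-spondin receptor of many stem cells, had 0 counts in WT and 4.17 ± 0.89 CPM in AE, at least 128-fold higher in AE (adjusted p = 1.6e-04). Its ligand Rspo1 also had 0 counts in WT and reached 7.19 ± 3.0 CPM in AE, and the matricellular target Ccn4 went from 0.541 ± 0.20 to 114 ± 33 CPM. Myc, a growth regulator under Wnt control in many epithelia, went from 123 ± 28 to 89.1 ± 25 CPM and did not pass (adjusted p = 0.17). The 6 members that passed as lower were Notum, Prom1, Cd44, Nkd2, Sox9 and Ccnd1. Cd44, a hyaluronan receptor, went from 741 ± 258 to 61.3 ± 14 CPM, and Ccnd1, the G1 cyclin D1, from 1197 ± 244 to 594 ± 117 CPM. Myc passed without AE 3-day replicate 1 (log2 fold change -0.68, adjusted p = 0.0189).

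Ligands, receptors and secreted inhibitors of the pathway also differed. Of 14 tested Frizzled and Lrp receptors 8 passed as higher and 1 as lower in AE, which became 4 higher and 4 lower with the GC and length offsets. Fzd5 went from 18.1 ± 2.4 to 52.9 ± 35 CPM and the co-receptor Lrp5 from 84.7 ± 44 to 213 ± 82 CPM, while Fzd4 was lower, from 33.03 ± 11 to 10.8 ± 2.3 CPM. Among 8 tested ligands 2 passed as higher and 3 as lower. Wnt7a read 13.9, 10.1, 29.2 and 32.5 CPM in the WT libraries and 0.125, 0.0825, 0.139 and 0.0745 CPM in the AE libraries. Wnt5b read 1.77, 2.10, 2.15 and 2.39 CPM in the WT libraries and 231, 237, 299 and 277 CPM in the AE libraries. Wnt7a was thus near 0 in AE and Wnt5b, a ligand of the non-canonical branch, near 2 CPM in WT, with no overlap in either. Wnt7b, another ligand, went from 123 ± 47 to 123 ± 45 CPM and did not pass (adjusted p = 0.90). Of 7 tested secreted antagonists 5 passed as higher and 1 as lower (median log2 fold change 5.95, 6.35 with genes at 3 or fewer counts at their bound or ratio). Wif1, which binds Wnt ligands, went from 0.0517 ± 0.048 to 22.02 ± 4.0 CPM, Sostdc1 from 0.0103 ± 0.021 to 7.36 ± 3.2 CPM, and Sfrp2 from 0 to 7.95 ± 6.3 CPM (at least 241-fold higher in AE, adjusted p = 2.6e-04). Notum, an enzyme that removes the lipid of Wnt ligands, was the one that was lower, from 6.601 ± 3.6 to 0.309 ± 0.41 CPM. Lrp5 did not pass without any 1 of AE 3-day replicate 1, WT 4-day replicate 1, AE 4-day replicate 1 and AE 4-day replicate 2 (log2 fold change 0.96 to 1.49, adjusted p = 0.0530 to 0.0943).

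Both lines expressed epithelial genes. Epcam, Krt8, Krt18, Cdh1, Cldn7, Esrp1 and Grhl2 were present in every library, and the summed level of the 8 epithelial markers ran from 2109 to 2851 CPM in WT and from 2057 to 3131 CPM in AE. Of these markers Epcam, an adhesion protein of epithelium, passed as lower in AE, from 513 ± 33 to 402 ± 37 CPM (log2 fold change -0.36 ± 0.12, adjusted p = 0.035), with no overlap between the lines. Epcam did not pass when any library except WT 3-day replicate 1 and AE 3-day replicate 1 was left out (log2 fold change -0.37 to -0.34, adjusted p = 0.0519 to 0.143). Krt19, the remaining marker, was near 0 in both lines, with means of 0.0213 and 0.0613 CPM. Of 15 tested milk and lactation genes 10 passed as higher in AE and 2 as lower (median log2 fold change 2.59), and genes of luminal progenitors were among the largest rises. Spp1, given below, was among the 2 that were lower. Kit read 0, 0, 0 and 0.0468 CPM in the WT libraries and 322, 386, 417 and 445 CPM in the AE libraries. Kit, the stem cell factor receptor of luminal progenitors, had 1 count in the WT libraries together, a ratio of 35989 with a 95% counting interval of 6459 to 1421520.0 (adjusted p = 2.0e-07). Elf5 read 3.68, 8.42, 4.75 and 4.12 CPM in the WT libraries and 362, 616, 397 and 406 CPM in the AE libraries. Elf5, the factor that directs luminal progenitors towards milk-producing cells, did not overlap between the lines, a log2 fold change of 6.41 ± 0.33 (adjusted p = 3.6e-06). Csn3 read 0.0505, 0, 0.0383 and 0 CPM in the WT libraries and 659, 484, 151 and 162 CPM in the AE libraries. Csn3 encodes kappa-casein of milk, and its AE level was higher at 3 days than at 4 days, a ratio of 16647 with a 95% counting interval of 4608 to 137465 (adjusted p = 3.7e-07). Foxa1, a pioneer factor of hormone-sensing luminal cells, went from 0.0581 ± 0.059 to 7.66 ± 1.6 CPM, and the milk fat globule protein gene Mfge8 from 99.8 ± 51 to 2024 ± 460.3 CPM (log2 fold change 4.43 ± 0.39, adjusted p = 4.7e-05).

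Of 27 tested luminal genes 11 passed as higher and 8 as lower (median log2 fold change 0.52). The list gave 10 higher and 12 lower with the GC and length offsets and 11 higher and 5 lower without AE 3-day replicate 2. The members with the largest falls were Ly6a and Areg. Ly6a read 608, 633, 613 and 541 CPM in the WT libraries and 2.74, 1.49, 0.417 and 0.410 CPM in the AE libraries. Ly6a encodes the surface antigen Sca1, and every AE library was under 3 CPM, a log2 fold change of -9.11 ± 0.54 (adjusted p = 6.8e-06). Areg read 414, 188, 463 and 364 CPM in the WT libraries and 12.9, 0.578, 0.648 and 0.670 CPM in the AE libraries. Areg, the EGF receptor ligand amphiregulin, was highest among AE libraries in 3-day replicate 1, a log2 fold change of -7.11 ± 1.19 (adjusted p = 0.0014). Spp1, the secreted phosphoprotein osteopontin, is on the milk and lactation list and not on the luminal list. It was the gene with the largest fall in CPM, from 6195 ± 729 to 1075 ± 633 CPM (log2 fold change -2.70 ± 0.34, adjusted p = 2.9e-04).

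Most keratins and barrier genes that passed were lower in AE. Of 13 tested keratins 8 passed as lower in AE and 1 as higher (median log2 fold change -1.54), and of 16 S100 and epithelial barrier genes 10 passed as lower and 5 as higher (median -2.05). Krt6a read 49.0, 42.6, 15.5 and 15.5 CPM in the WT libraries and 0.249, 0, 0 and 0.0372 CPM in the AE libraries. Krt6a, a keratin of wounded and squamous epithelium, was higher in both 3-day than in both 4-day WT libraries and absent or near 0 in AE, a log2 fold change of -8.66 ± 0.58 (adjusted p = 1.2e-05). Krt14 read 105, 524, 566 and 1019 CPM in the WT libraries and 94.1, 29.6, 72.7 and 54.8 CPM in the AE libraries. Krt14, the basal keratin, was lowest among WT libraries in 3-day replicate 1, which still lay above every AE library, a log2 fold change of -2.99 ± 0.62 (adjusted p = 0.0043). Krt16, a partner of Krt6a, went from 40.6 ± 19 to 0.574 ± 0.36 CPM. Krt8 and Krt18, the simple epithelial pair, went from 399 ± 204 to 323 ± 221 CPM and from 440.4 ± 189 to 361 ± 249 CPM and did not pass (adjusted p = 0.73 and 0.66). Klk10, a kallikrein protease of skin and breast epithelium, went from 69.2 ± 5.1 to 0.538 ± 0.37 CPM, and S100a4, a calcium-binding protein linked to metastasis, from 301 ± 89 to 21.1 ± 8.4 CPM (log2 fold change -3.87 ± 0.33, adjusted p = 4.0e-05). Tgm1, a transglutaminase that cross-links the cornified envelope, moved the other way, from 1.09 ± 0.42 to 93.3 ± 31 CPM (log2 fold change 6.41 ± 0.40, adjusted p = 7.9e-06). Among 15 desmosome and gap junction genes 8 passed as lower and 3 as higher, with the desmosomal cadherin Dsg3 going from 102 ± 49 to 1.19 ± 1.9 CPM.

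Of 23 tested basal and myoepithelial genes 9 passed as higher and 12 as lower in AE (median log2 fold change -1.29). The lower ones included Krt6a, Krt14, the nerve growth factor receptor gene Ngfr, from 5.65 ± 4.7 to 0.00931 ± 0.019 CPM, and Dsg3. The higher ones included the smooth muscle actin gene Acta2. Acta2 had 0 counts in all 4 WT libraries and read 125, 35.9, 69.8 and 65.2 CPM in the AE libraries. Acta2, smooth muscle alpha-actin, was detected in AE libraries alone, at least 2252-fold higher in AE (adjusted p = 1.7e-04). Its actin-binding partners Tagln and Cnn1 went from 0.0929 ± 0.068 to 17.8 ± 10.5 CPM and from 0.0871 ± 0.033 to 5.86 ± 2.0 CPM, and the enteric actin Actg2 from 0.0865 ± 0.078 to 8.82 ± 4.3 CPM. Over the contractile list 13 of 25 tested genes passed as higher and 6 as lower (median 1.16). The non-muscle myosin Myh9 went from 633 ± 251 to 1165 ± 559.9 CPM and did not pass (adjusted p = 0.10). Krt18 passed without AE 3-day replicate 1 (log2 fold change -0.92, adjusted p = 0.0491).

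Collagens were mostly higher in AE. Of 31 tested collagens 25 passed as higher and 4 as lower (median log2 fold change 4.29), and 26 passed in the same direction in the treated libraries. Col9a2 had 0 counts in all 4 WT libraries and read 211, 133, 236 and 182 CPM in the AE libraries. Col9a2, a chain of cartilage collagen IX, was at 0 in WT and above 100 CPM in each AE library, at least 5766-fold higher in AE (adjusted p = 1.3e-05). Col11a1 read 638, 443, 382 and 391 CPM in the WT libraries and 3230.3, 4253, 5936 and 5847 CPM in the AE libraries. Col11a1, a fibrillar chain of cartilage and of tumour stroma, was already present in WT and higher in each AE library, a log2 fold change of 3.36 ± 0.29 (adjusted p = 4.4e-05). Col14a1 went from 0 to 57.2 ± 23 CPM (at least 1748-fold higher in AE, adjusted p = 2.2e-05), Col3a1 from 0 to 28.8 ± 22 CPM and Col6a3 from 0.175 ± 0.076 to 106 ± 77 CPM. Col4a1, a chain of the basement membrane network, went from 2.51 ± 1.4 to 696 ± 223 CPM (log2 fold change 8.18 ± 0.28, adjusted p = 4.8e-07). The 4 collagens lower in AE were Col17a1, Col8a1, Col7a1 and Col4a6. Col17a1 and Col7a1 belong to the anchorage of basal epithelial cells, and Col8a1 went from 102 ± 29.97 to 15.7 ± 7.8 CPM. Col7a1 did not pass when any library except WT 3-day replicate 1 and AE 3-day replicate 1 was left out (log2 fold change -2.02 to -1.52, adjusted p = 0.0764 to 0.175), and Col4a6 did not pass when any library except WT 3-day replicate 1 was left out (log2 fold change -0.45 to -0.30, adjusted p = 0.0669 to 0.116).

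The genes with the largest folds included Cnmd and Ucma, higher in AE, and Acan, lower. Cnmd read 0.0505, 0.0413, 0.0383 and 0.0468 CPM in the WT libraries and 1111, 1336, 1136 and 1139.8 CPM in the AE libraries. Cnmd encodes chondromodulin, an inhibitor of vessel growth made by cartilage, and its 4 WT libraries together held 4 counts, a log2 fold change of 14.55 ± 0.25 (adjusted p = 4.9e-08). Ucma, a secreted protein of cartilage matrix, went from 0 to 72.8 ± 35 CPM (at least 2224-fold higher in AE, adjusted p = 1.3e-04). Sox10 had 0 counts in all 4 WT libraries and read 256, 96.1, 155 and 123 CPM in the AE libraries. Sox10, a factor of neural crest and of mammary progenitors, was at 0 in WT and highest in AE 3-day replicate 1, at least 4774-fold higher in AE (adjusted p = 6.8e-05). Acan read 364, 439.9, 629.7 and 643 CPM in the WT libraries and 0.125, 0.248, 0.185 and 0.372 CPM in the AE libraries. Acan, the core protein of the cartilage proteoglycan aggrecan, was thus high in WT and under 1 CPM in every AE library, a log2 fold change of -11.07 ± 0.28 (adjusted p = 2.0e-07). Gdf5, a BMP family signal of forming joints, went from 0.00958 ± 0.019 to 36.7 ± 19 CPM (ratio of 3332 with a 95% counting interval of 598 to 131660.0, adjusted p = 6.9e-06). Vcan, the proteoglycan versican, was lower as Acan was, from 317 ± 112 to 19.3 ± 2.1 CPM.

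Over the matrix glycoproteins and proteoglycans 14 of 22 tested genes passed as higher and 4 as lower (median log2 fold change 3.17), and of 15 laminin and basement membrane genes 8 were higher and 2 lower. The last list gave 7 higher and 6 lower with the GC and length offsets. Bgn, the small proteoglycan biglycan, went from 0.0213 ± 0.025 to 103 ± 64 CPM (ratio of 4719 with a 95% counting interval of 1306 to 38973, adjusted p = 2.0e-06), and the elastic fibre gene Fbln5 from 0.961 ± 0.11 to 945 ± 323 CPM. Nid1, which ties laminin to collagen IV, went from 0.0243 ± 0.028 to 33.2 ± 21 CPM, and the laminin chain Lama4 from 2.84 ± 0.82 to 246 ± 43 CPM. Among proteases, Mmp14, a membrane-bound collagenase, went from 0.102 ± 0.052 to 146 ± 27 CPM (log2 fold change 10.45 ± 0.30, adjusted p = 3.3e-07) and the procollagen protease Adamts2 from 0.1703 ± 0.096 to 152 ± 24 CPM. Serpinb2, an inhibitor of plasminogen activators, went from 44.9 ± 37 to 0.0600 ± 0.052 CPM (log2 fold change -9.39 ± 1.04, adjusted p = 1.5e-04). Itga11, a collagen-binding integrin chain, went from 0 to 139 ± 74 CPM (at least 4237-fold higher in AE, adjusted p = 1.4e-04), while the collagen-binding chain Itga2 was lower, from 35.6 ± 18 to 1.37 ± 0.49 CPM.

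Of the 12 fibroblast markers 9 were tested, and 7 passed as higher and 1 as lower in AE. Their summed level was 21.7 to 32.5 CPM in WT and 277 to 602 CPM in AE. Col1a1, Col1a2 and Pdgfra made up most of it, with AE means of 73.3, 103 and 145 CPM. Thy1 and Dpt had 0 counts in WT and AE means of 1.95 and 0.732 CPM, and both passed as higher. The marker that passed as lower was Cd34, from 7.09 ± 1.8 to 0.0415 ± 0.059 CPM. Lum had 0 counts in all 8 libraries, Dcn had means of 0.0252 CPM in WT and 0.0196 CPM in AE, and Fap 0 and 0.0496 CPM. The summed epithelial markers overlapped between the lines in the same libraries, as given above. The part of other cells in the matrix genes was not tested beyond these values. Summed immune markers stood at 2.93 to 6.603 CPM in WT and 3.13 to 3.49 CPM in AE. Of the 2 tested immune markers, Lyz2 passed as higher in AE, from 0 to 1.14 ± 0.44 CPM. Cd68 passed as lower, from 3.99 ± 1.6 to 1.37 ± 0.40 CPM. The endothelial sum was 0.495 to 1.41 and 14.7 to 49.3 CPM, nearly all of it in AE from the transcription factor Erg (mean 36.4 CPM), with Cdh5 at 0.0116 CPM and Emcn at 0. Pecam1, another endothelial marker, passed as lower, from 0.893 ± 0.30 to 0.276 ± 0.22 CPM. Adipocyte markers summed to 1.28 to 2.93 CPM in WT and 2.12 to 5.57 CPM in AE. Among them Fabp4 passed as higher, from 0.124 ± 0.054 to 1.73 ± 0.76 CPM. Muscle and nerve markers summed to 2.27 to 4.25 and 101 to 267 CPM, the latter nearly all Sox10. In such bulk samples a change in the share of a cell type and a change of RNA per cell cannot be told apart.

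Most transcription factors of the epithelial-mesenchymal transition that passed were lower in AE, while most mesenchymal genes that passed were higher. Of 16 tested factors 9 passed as lower in AE and 2 as higher (median log2 fold change -1.34), while of 26 mesenchymal genes 15 passed as higher and 7 as lower (median 1.17). Hmga2 read 825, 282, 494 and 329 CPM in the WT libraries and 20.4, 36.3, 34.9 and 47.0 CPM in the AE libraries. Hmga2, a chromatin protein of embryonic and tumour cells, was lower in each AE library than in any WT library, a log2 fold change of -3.81 ± 0.43 (adjusted p = 1.7e-04). Tbx3 went from 28.7 ± 7.0 to 0.166 ± 0.10 CPM and Foxq1 from 15.6 ± 3.5 to 0.932 ± 0.75 CPM. Of the 9 factors that passed as lower, 2 lie on chromosome 13, described below. Twist1 read 0, 0, 0 and 0.0936 CPM in the WT libraries and 15.3, 20.3, 22.8 and 23.8 CPM in the AE libraries. Twist1, one of the defining factors of the transition, moved the other way, a ratio of 942 with a 95% counting interval of 261 to 7786 (adjusted p = 6.3e-06). Vim read 28.0, 43.1, 22.9 and 20.4 CPM in the WT libraries and 1118, 1013, 1217 and 1076 CPM in the AE libraries. Vim, the intermediate filament vimentin, was higher in every AE library, a log2 fold change of 5.32 ± 0.26 (adjusted p = 2.8e-06). Cdh2, the N-cadherin gene, was lower in AE, from 59.6 ± 27 to 18.4 ± 3.6 CPM (log2 fold change -1.67 ± 0.39, adjusted p = 0.0083), and Cdh1, the E-cadherin gene, went from 578 ± 58 to 599 ± 21 CPM and did not pass (adjusted p = 0.74). The splicing factor Esrp1 and the epithelial factor Grhl2 did not pass either, at 402 ± 34 to 445 ± 14 CPM and 168 ± 6.9 to 153 ± 18 CPM. Klf4, a factor of barrier epithelium and reprogramming, went from 99.2 ± 33 to 2.33 ± 0.97 CPM (log2 fold change -5.40 ± 0.41, adjusted p = 2.3e-05).

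Junction genes were mixed. Of 21 tested tight junction genes 8 passed as higher and 6 as lower, which became 5 higher and 13 lower with the GC and length offsets, and of 17 adherens junction and cadherin genes 3 were higher and 6 lower (2 higher and 12 lower with the offsets). Without offsets 52.9% of the adherens list was called, near the 48.6% of all genes. Tjp3, a scaffold of tight junctions, went from 0.0929 ± 0.089 to 17.4 ± 4.3 CPM (log2 fold change 7.42 ± 0.51, adjusted p = 1.3e-05), and Cldn8, a barrier claudin, from 1.56 ± 0.76 to 63.5 ± 17 CPM. Cdh13, a cadherin anchored by a lipid, went from 57.6 ± 14 to 0.0612 ± 0.020 CPM, and the delta-catenin gene Ctnnd2 from 0.0206 ± 0.041 to 41.3 ± 14 CPM (ratio of 1894 with a 95% counting interval of 524 to 15642, adjusted p = 4.6e-06).

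Most growth factor genes of the IGF, PDGF and FGF families that passed were higher in AE, and more EGF family genes passed as lower than as higher. Of 32 tested ligands, receptors and binding proteins of the FGF, PDGF, VEGF and IGF families 17 passed as higher in AE and 8 as lower (median log2 fold change 1.79). Igf1 had 0 counts in all 4 WT libraries and read 223, 346, 302 and 307 CPM in the AE libraries. Igf1, insulin-like growth factor 1, had the largest fitted log2 fold change of all genes and was at least 8988-fold higher in AE (adjusted p = 8.7e-06). Igfbp5 read 102, 71.4, 138 and 131 CPM in the WT libraries and 35407, 39642, 44038 and 41827 CPM in the AE libraries. Igfbp5, which binds insulin-like growth factors and marks mammary involution, had the largest rise in CPM of all genes, a log2 fold change of 8.54 ± 0.29 (adjusted p = 4.8e-07). Igfbp2 went from 0.347 ± 0.25 to 355 ± 226 CPM (log2 fold change 10.00 ± 0.80, adjusted p = 2.9e-05), and the embryonic growth factor Igf2 from 0.436 ± 0.40 to 89.3 ± 41 CPM. The PDGF receptors Pdgfra and Pdgfrb went from 5.20 ± 2.0 to 145 ± 32 CPM and from 0.239 ± 0.16 to 17.7 ± 12 CPM. Fgf13, a member that acts inside the cell, and Vegfa, the vessel growth factor, were lower, from 32.7 ± 9.2 to 0.00931 ± 0.019 CPM and from 128 ± 32 to 30.8 ± 11 CPM. Of 13 EGF family genes 6 passed as lower and 2 as higher (median -0.83). Hbegf went from 101 ± 29 to 11.5 ± 11 CPM (log2 fold change -3.25 ± 0.62, adjusted p = 0.0028), Tgfa from 46.5 ± 4.5 to 7.14 ± 2.8 CPM and Epgn from 76.7 ± 41 to 17.0 ± 21 CPM. The receptor gene Erbb3 did not pass, at 50.4 ± 17 to 72.3 ± 15 CPM.

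TGF-beta pathway genes passed in both directions, 7 of 27 tested as higher and 8 as lower in AE. That is 55.6% called, near the 48.6% of all genes. The 4-day libraries alone gave 12 higher and 10 lower, and the GC and length offsets 8 higher and 15 lower. The ligands Tgfb2 and Tgfb3 were higher, from 5.77 ± 1.1 to 147 ± 12 CPM (log2 fold change 4.69 ± 0.16, adjusted p = 5.1e-07) and from 79.6 ± 18 to 849.9 ± 174 CPM. The activin subunit gene Inhba and the activin antagonist gene Fst were lower, from 77.2 ± 23 to 4.01 ± 4.8 CPM (log2 fold change -4.42 ± 0.78, adjusted p = 0.0019) and from 162 ± 60.2 to 8.81 ± 2.8 CPM. Both of these lie on chromosome 13, described below. In the BMP list 11 of 19 tested genes passed as higher and 3 as lower (median log2 fold change 1.29), with the ligand Bmp4 going from 0.903 ± 0.55 to 9.51 ± 3.8 CPM and the pseudoreceptor Bambi from 2.83 ± 0.52 to 30.6 ± 2.6 CPM. Smad5, a transducer of BMP signals, was lower, from 217 ± 45 to 75.1 ± 10.4 CPM. Of the 3 BMP list genes that passed as lower, 2 lie on chromosome 13. Of 15 Notch pathway genes 5 passed as higher and 1 as lower, which became 5 higher and 6 lower with the GC and length offsets. Without the offsets 40% of this list was called, below the 48.6% of all genes. Notch3 went from 3.20 ± 1.2 to 53.9 ± 14 CPM (log2 fold change 4.07 ± 0.37, adjusted p = 5.0e-05), the ligand Dll1 from 16.2 ± 1.2 to 170.0 ± 47 CPM and the target Hey1 from 31.3 ± 2.2 to 192 ± 21 CPM. Epgn did not pass when any library except WT 3-day replicate 2, AE 3-day replicate 1 and AE 3-day replicate 2 was left out (log2 fold change -2.31 to -2.12, adjusted p = 0.0515 to 0.0887), and Erbb3 passed without WT 3-day replicate 2 (log2 fold change 0.78, adjusted p = 0.0340).

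Receptors for the matrix and for guidance cues also differed. Of 19 tested integrin chains 8 passed as higher in AE and 3 as lower (median log2 fold change 0.59, 6 higher and 5 lower with the GC and length offsets). Itgb3, the beta chain of the vitronectin receptor, went from 17.9 ± 4.1 to 206 ± 47 CPM (log2 fold change 3.51 ± 0.25, adjusted p = 1.5e-05), while Itgb1, the beta chain shared by most integrins, and Itgb4 of the hemidesmosome did not pass, at 1492 ± 436 to 1359 ± 149 CPM and 379 ± 213 to 256 ± 129 CPM. Of 40 ephrin, semaphorin and axon guidance genes 13 passed as higher and 12 as lower, which became 14 higher and 19 lower with the offsets. Sema3a, a secreted repellent, went from 15.9 ± 3.1 to 0.0926 ± 0.037 CPM (log2 fold change -7.34 ± 0.35, adjusted p = 2.4e-06). Ntn1, the guidance ligand netrin 1, moved the other way, from 1.29 ± 0.53 to 147 ± 17 CPM (log2 fold change 6.84 ± 0.29, adjusted p = 1.3e-06), and so did the Slit receptor Robo1, from 1.03 ± 0.51 to 17.3 ± 0.65 CPM.

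Genes that report ERK and YAP signalling were mixed. Of 18 tested ERK feedback genes 3 passed as higher in AE and 5 as lower (median log2 fold change -0.02, 3 higher and 9 lower with the GC and length offsets). The share called without offsets was 44.4%, near the 48.6% of all genes. Fosl1, an AP-1 subunit, went from 36.3 ± 21 to 1.15 ± 1.3 CPM (log2 fold change -4.89 ± 0.83, adjusted p = 0.0016), Etv4, an ETS factor, from 50.6 ± 20.4 to 7.44 ± 1.4 CPM, and the phosphatase Dusp4 from 34.4 ± 4.3 to 13.5 ± 5.5 CPM. Spred3, an inhibitor of the pathway, was higher, from 5.10 ± 0.49 to 14.7 ± 1.1 CPM (log2 fold change 1.53 ± 0.17, adjusted p = 1.6e-04). Of 31 YAP and TEAD targets 11 passed as higher and 8 as lower, which became 6 higher and 14 lower with the offsets. Nt5e, the surface enzyme CD73 that makes adenosine, went from 315 ± 88 to 6.22 ± 1.9 CPM (log2 fold change -5.69 ± 0.25, adjusted p = 1.7e-06), and the RNA-binding protein gene Rbms3 from 1.04 ± 0.88 to 128 ± 19 CPM (log2 fold change 6.97 ± 0.58, adjusted p = 3.4e-05). Yap1 and Tead1 themselves did not pass, at 227 ± 45 to 227 ± 11 CPM and 215 ± 66 to 268 ± 28 CPM. Tead1 passed without WT 3-day replicate 1 (log2 fold change 0.55, adjusted p = 0.00628).

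Inflammatory signals differed between the lines in both directions. Of 25 tested chemokine, cytokine and prostaglandin genes 9 passed as higher in AE and 10 as lower. Il1a read 24.2, 6.64, 9.12 and 6.70 CPM in the WT libraries and had 0 counts in all 4 AE libraries. Il1a, the alarm cytokine interleukin 1 alpha, was detected in WT alone and was highest in WT 3-day replicate 1, at least 359.9-fold lower in AE (adjusted p = 4.7e-04). Ptgs2 read 1781, 1031, 1395 and 1237 CPM in the WT libraries and 54.4, 11.8, 12.3 and 13.9 CPM in the AE libraries. Ptgs2, the inducible cyclooxygenase, was over 1000 CPM in every WT library and higher in AE 3-day replicate 1 than in the other AE libraries, a log2 fold change of -6.02 ± 0.58 (adjusted p = 7.0e-05). The neutrophil attractant Cxcl5 went from 129.7 ± 88 to 1.0003 ± 0.30 CPM (log2 fold change -6.80 ± 0.41, adjusted p = 6.9e-06), and Il24 from 30.4 ± 10.3 to 0.0197 ± 0.023 CPM. On the AE side the monocyte attractant Ccl2 went from 0.0798 ± 0.051 to 6.89 ± 5.8 CPM (log2 fold change 6.35 ± 0.54, adjusted p = 3.9e-05) and Il33 from 0.0474 ± 0.072 to 7.09 ± 2.9 CPM. Lif, a cytokine of the interleukin 6 family, did not pass, at 118 ± 39.6 to 104 ± 104 CPM. Of 12 complement and acute phase genes 9 passed as higher and 2 as lower (median log2 fold change 3.18), among them the complement regulator Cd55, from 3.69 ± 2.4 to 61.9 ± 19.9 CPM (log2 fold change 4.17 ± 0.39, adjusted p = 6.1e-05), and Lcn2, an iron-withholding protein also found in milk, from 125 ± 40.3 to 1014 ± 340.0 CPM. Of 17 antigen presentation genes 9 passed as higher and 1 as lower, with the peptide transporter subunit Tap2 going from 4.26 ± 3.0 to 19.8 ± 7.2 CPM (log2 fold change 2.30 ± 0.62, adjusted p = 0.015). Class I heavy chains H2-K1 and H2-D1 did not pass, at 154 ± 42 to 144 ± 23 CPM and 146 ± 45 to 131 ± 59.6 CPM. Interferon response genes were mixed, 7 higher and 9 lower of 25, with Ifit1 going from 7.49 ± 2.0 to 0.401 ± 0.21 CPM (log2 fold change -4.27 ± 0.27, adjusted p = 8.6e-06).

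The S phase and mitosis genes that passed were all lower in AE in the untreated libraries. Of 30 tested S phase genes 22 passed as lower and 0 as higher (median log2 fold change -0.72), and of 30 G2 and mitosis genes 21 passed as lower and 0 as higher (median -0.72). In the 4-day libraries alone 26 and 24 passed as lower, and in the treated libraries 0 of either list passed in that direction. With the replicate number as a block 14 and 13 passed as lower. Rrm2, a subunit of ribonucleotide reductase, went from 350.4 ± 88 to 98.5 ± 13 CPM (log2 fold change -1.83 ± 0.20, adjusted p = 1.6e-04), and Mcm6, a helicase subunit, from 458 ± 11 to 191 ± 35 CPM. Top2a, the topoisomerase of dividing cells, went from 1598 ± 551 to 477 ± 99 CPM (log2 fold change -1.72 ± 0.26, adjusted p = 7.5e-04). Mki67 read 1539, 1019, 973 and 748 CPM in the WT libraries and 451, 778, 610.3 and 645 CPM in the AE libraries. Mki67, the proliferation marker, overlapped between the lines, since WT 4-day replicate 2 lay below AE 3-day replicate 2, and passed at a log2 fold change of -0.76 ± 0.25 (adjusted p = 0.034). Ccnb1, the mitotic cyclin, was lower, from 177 ± 53 to 45.6 ± 9.1 CPM, and lies on chromosome 13. Each of these lists held 1 gene on that chromosome. Among 28 CDK inhibitors and p53 targets 10 passed as lower and 3 as higher, with 16 lower in the 4-day libraries alone. Over both days this was 46.4% called, near the 48.6% of all genes. Perp, a desmosome gene that p53 induces, went from 948 ± 233 to 219 ± 51 CPM (log2 fold change -2.11 ± 0.17, adjusted p = 2.6e-05), and the retinoblastoma gene Rb1 was higher, from 48.8 ± 21 to 180.5 ± 37 CPM (log2 fold change 1.94 ± 0.29, adjusted p = 8.4e-04). Cdkn1c, an imprinted CDK inhibitor, had 0 counts in WT and 9.21 ± 4.7 CPM in AE. Lif passed without AE 3-day replicate 1 (log2 fold change -1.38, adjusted p = 4.9e-04). Mki67 did not pass when any library except WT 3-day replicate 2 and WT 4-day replicate 2 was left out (log2 fold change -0.86 to -0.56, adjusted p = 0.0529 to 0.0917).

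Imprinted genes, which are read from 1 parental copy, were higher in AE in 12 of 22 tested cases and lower in 1 (median log2 fold change 0.92, 9 higher and 6 lower with the GC and length offsets). Igf2 is given above. Grb10, an adaptor that restrains insulin receptor signals, went from 0.0222 ± 0.026 to 7.44 ± 2.2 CPM (ratio of 342 with a 95% counting interval of 94.4 to 2832, adjusted p = 1.2e-05), and the growth-restricting zinc finger gene Plagl1 from 4.24 ± 2.0 to 18.7 ± 6.8 CPM. Of 31 Hox genes with a row 7 reached the count filter, and 7 passed as higher in AE. Hoxa5, a regulator of mammary differentiation, went from 3.41 ± 0.89 to 7.32 ± 1.1 CPM (log2 fold change 1.13 ± 0.20, adjusted p = 0.0022). Among other lineage factors 8 of 23 tested passed as higher and 8 as lower. Runx3, a factor of epithelial and immune lineages, went from 43.4 ± 6.2 to 0.0730 ± 0.064 CPM (log2 fold change -9.15 ± 0.44, adjusted p = 2.5e-06), and Bcl11a, a factor of mammary progenitors, from 0.0252 ± 0.050 to 22.7 ± 3.1 CPM (ratio of 1031 with a 95% counting interval of 285 to 8520.5, adjusted p = 7.2e-06). Runx1 and Runx2 did not pass, at 140.1 ± 77 to 189 ± 52 CPM and 94.0 ± 22 to 93.5 ± 3.2 CPM. Runx1 passed without WT 3-day replicate 1 (log2 fold change 0.79, adjusted p = 0.00535).

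Metabolic lists held changes in both directions. Of 33 tested cholesterol and fatty acid synthesis genes 7 passed as higher and 10 as lower in AE, and 16 as lower in the 4-day libraries alone, with 6 higher and 20 lower under the GC and length offsets. Over both days and without offsets 51.5% of them were called, near the 48.6% of all genes. Srebf1, the factor that drives fatty acid synthesis, and the desaturase Fads2 were higher, from 97.7 ± 58 to 616 ± 172 CPM (log2 fold change 2.74 ± 0.51, adjusted p = 0.0025) and from 38.5 ± 15 to 200.1 ± 21 CPM. Dhcr7, the last enzyme of cholesterol synthesis, was lower, from 170.4 ± 45 to 52.7 ± 3.1 CPM. Hmgcs1 and Idi1, early enzymes of that pathway, were lower too, from 161 ± 29.8 to 57.9 ± 6.4 CPM and 70.0 ± 33 to 21.9 ± 4.7 CPM. Both lie on chromosome 13, and without the list's genes there 7 of 30 passed as lower. Of 34 detoxification genes 18 passed as higher and 10 as lower (median log2 fold change 0.96). Aldh3a1, an aldehyde dehydrogenase of cornea and tumours, went from 86.6 ± 24 to 0.273 ± 0.32 CPM (log2 fold change -8.29 ± 0.65, adjusted p = 2.5e-05), while Mgst1 and the quinone reductase Nqo1 were higher, from 64.7 ± 24 to 718 ± 175 CPM and from 0.212 ± 0.095 to 7.45 ± 1.1 CPM. Of 31 glycolysis and hypoxia genes 13 passed as higher and 5 as lower, led by the aldolase Aldoc, from 0.799 ± 0.31 to 323 ± 25 CPM (log2 fold change 8.64 ± 0.31, adjusted p = 5.5e-07). The pyruvate kinase gene Pkm and the lactate dehydrogenase gene Ldha did not pass, at 1878 ± 887 to 1151 ± 425 CPM and 1251 ± 396 to 1143 ± 196 CPM. Gapdh read only 2.76 CPM in WT and 1.38 CPM in AE, a low level for this gene of every cell, and genes with near-identical copies elsewhere in the genome are uncertain in these counts. Pkm passed without WT 3-day replicate 1 and without AE 3-day replicate 1, each left out alone (log2 fold change -1.06 to -0.95, adjusted p = 0.0298 to 0.0383).

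Of 30 tested genes of serine, one-carbon and amino acid stress metabolism 6 passed as higher in AE and 5 as lower, which became 6 higher and 14 lower with the GC and length offsets. Without offsets the share called was 36.7%, below the 48.6% of all genes. The mitochondrial folate enzyme Aldh1l2 was higher, from 31.8 ± 5.2 to 298 ± 49.7 CPM (log2 fold change 3.24 ± 0.17, adjusted p = 3.8e-06), and the folate enzyme Mthfd1l was lower, from 119 ± 9.7 to 32.9 ± 1.4 CPM (log2 fold change -1.86 ± 0.12, adjusted p = 9.6e-06). The chaperone gene Hspa5 and the serine synthesis gene Psat1 did not pass, at 1186 ± 458 to 1281 ± 129.7 CPM and 358 ± 27 to 398 ± 59 CPM. Ribosomal protein genes had the lowest share of calls among the lists with more than 20 tested genes, 4 lower and 0 higher of 28 (median log2 fold change -0.02), with 12 lower in the 4-day libraries alone and 11 with the offsets. Rpl22 went from 299 ± 30.4 to 149 ± 21 CPM (log2 fold change -1.001 ± 0.15, adjusted p = 7.7e-04). Of 6 tested genes of the sex chromosomes list Kdm5c alone passed, and Xist, the RNA that silences an X chromosome, was present in both lines, at 3007 ± 1409 to 2042 ± 368 CPM (adjusted p = 0.18). Of 26 germline and testis genes with a row 4 reached the count filter, 1 passed as higher and 1 as lower. Hspa5 passed without WT 3-day replicate 1 (log2 fold change 0.42, adjusted p = 0.0475).

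Beyond the lists, the largest differences in CPM that passed included structural and housekeeping genes. Emp1, an epithelial membrane protein, went from 3964 ± 1343 to 583 ± 38 CPM (log2 fold change -2.75 ± 0.25, adjusted p = 4.9e-05), and the translation factor gene Eef1a1 from 8983 ± 907 to 4904 ± 321 CPM (log2 fold change -0.87 ± 0.17, adjusted p = 0.0033). Ctsd read 814, 1826, 1637 and 2041 CPM in the WT libraries and 8797, 5513, 9229 and 8678 CPM in the AE libraries. Ctsd, the lysosomal protease cathepsin D, did not overlap between the lines and was lowest among AE libraries in 3-day replicate 2, a log2 fold change of 2.36 ± 0.29 (adjusted p = 2.9e-04). Ddx5 read 4949.6, 2519, 2453 and 2251 CPM in the WT libraries and 1015, 1201, 947 and 1110.0 CPM in the AE libraries. Ddx5, an RNA helicase, was highest in WT 3-day replicate 1, a log2 fold change of -1.47 ± 0.25 (adjusted p = 0.0015). Among the largest folds were Dynap, a gene of a membrane protein, from 567 ± 124 to 0.279 ± 0.19 CPM (log2 fold change -11.00 ± 0.40, adjusted p = 6.9e-07), and the immune checkpoint receptor gene Tigit, from 21.1 ± 6.3 to 0.0104 ± 0.021 CPM (ratio of 2058 with a 95% counting interval of 369 to 81323, adjusted p = 2.5e-06).

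Some genes were on in one line and off in the other. With the higher line at a mean of at least 5 CPM and every library of the other under 0.1 CPM, 114 genes were off in WT and 18 off in AE. The 5 with the highest CPM of the former were Cnmd, Kit, Csn3, Ctsc and Igf1, and of the latter U90926, Cdh13, Fgf13, Il24 and Gpr149. U90926 read 392, 167, 389.6 and 331 CPM in the WT libraries and 0.0416, 0, 0 and 0 CPM in the AE libraries. U90926, a long noncoding RNA, held 1 count in the AE libraries together, a ratio of 30718 with a 95% counting interval of 5513 to 1213340.0 (adjusted p = 1.1e-06). Fgf13 read 46.2, 27.5, 30.8 and 26.1 CPM in the WT libraries and 0, 0, 0 and 0.0372 CPM in the AE libraries. Ctsc read 0.0505, 0, 0.0766 and 0.0468 CPM in the WT libraries and 202, 376, 308 and 335 CPM in the AE libraries. Ctsc, the lysosomal protease cathepsin C, and Fgf13 each kept their lines apart in all libraries. Promoters of some genes at the top of each group are shown because CpG density is a feature by which promoters differ. That of Cdh13, which ranked above Fgf13 among the genes off in AE, is not shown. The windows run from 250 bases before to 50 bases after the annotated start, on the gene's strand, from RefSeq on GRCm38.p6, with each CpG in capitals. Cnmd lies at chr14:79662134-79662433 on the minus strand and Kit at chr5:75574737-75575036 on the plus strand, both off in WT. U90926 lies at chr5:92215359-92215658 and Fgf13 at chrX:59585523-59585822, both on the minus strand and off in AE.
Cnmd promoter: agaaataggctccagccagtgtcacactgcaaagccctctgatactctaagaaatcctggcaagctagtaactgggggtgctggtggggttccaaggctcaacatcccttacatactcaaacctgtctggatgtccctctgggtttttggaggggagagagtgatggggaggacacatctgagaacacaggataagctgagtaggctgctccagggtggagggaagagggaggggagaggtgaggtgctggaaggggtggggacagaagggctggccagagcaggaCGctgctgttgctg
Kit promoter: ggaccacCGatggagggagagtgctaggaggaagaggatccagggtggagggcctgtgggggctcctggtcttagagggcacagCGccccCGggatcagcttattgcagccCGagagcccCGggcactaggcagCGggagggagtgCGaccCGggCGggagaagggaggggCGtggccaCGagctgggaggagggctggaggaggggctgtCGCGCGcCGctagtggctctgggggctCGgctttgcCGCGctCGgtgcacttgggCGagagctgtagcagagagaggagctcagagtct
U90926 promoter: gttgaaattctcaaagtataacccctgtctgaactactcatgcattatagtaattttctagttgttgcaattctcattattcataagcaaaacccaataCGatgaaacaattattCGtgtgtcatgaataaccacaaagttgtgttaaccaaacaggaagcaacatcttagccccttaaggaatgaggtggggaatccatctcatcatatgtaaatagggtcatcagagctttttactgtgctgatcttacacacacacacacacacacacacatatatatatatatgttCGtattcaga
Fgf13 promoter: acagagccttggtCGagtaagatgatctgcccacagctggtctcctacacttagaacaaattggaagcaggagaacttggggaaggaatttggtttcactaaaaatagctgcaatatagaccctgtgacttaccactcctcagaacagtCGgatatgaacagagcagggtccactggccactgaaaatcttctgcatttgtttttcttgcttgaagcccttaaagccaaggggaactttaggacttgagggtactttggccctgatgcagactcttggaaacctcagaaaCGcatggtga

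These windows hold 1 CpG for Cnmd, 20 for Kit and 3 each for U90926 and Fgf13. Over all genes tested with a promoter entry (10014) the median was 21 CpG per 300 bases, and 83.7% held 10 or more. Among the 87 genes off in WT with an entry the median was 16 and 66.7% held 10 or more. Among the 13 off in AE the median was 5 and 38.5% held 10 or more. CG reads the same on both strands, so 1 strand was searched. These shares are descriptions, since the genes were chosen by their levels, and DNA methylation was not analysed here.

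Position along the genome set 1 chromosome apart. Of 468 tested genes on chromosome 13, 313 passed as lower in AE (66.9%, against 23.3% of all genes) and 53 as higher. Their median log2 fold change was -1.03, while no other chromosome's median lay below -0.30, that of chromosome 1. Cut into 254 windows of 10 Mb with at least 10 tested genes over the genome, the 9 windows with the lowest medians were those of chromosome 13 from 30 to 120 Mb. The 9 had medians of -1.58 to -0.92, and the lowest window elsewhere had -0.83. The 3 windows of chromosome 13 before 30 Mb stood at -0.49, -0.55 and 0.28. The shift was present at either day and in treated cells, with chromosome 13 medians of -1.11 at 3 days, -0.96 at 4 days, -0.83 with TGFb and -0.87 with Wnt3a. With the GC and length offsets the chromosome 13 median was -1.06, where the median of all genes was -0.20. Without the offsets the median of all genes was 0.02. Members of several lists that passed as lower lie on chromosome 13, which held 313 of the 2951 lower genes over the genome. It held 2 of 3 such genes in the BMP list and 2 of 9 factors of the epithelial-mesenchymal transition. It held 3 of 10 cholesterol and fatty acid synthesis genes, 2 of 8 TGF-beta pathway genes and 2 of 6 tight junction genes. It also held 1 of 6 in the Wnt feedback and target list, 1 of 4 matrix glycoproteins and proteoglycans, and 1 of 3 integrins. Counts this small are descriptions and were not tested. The lower genes on this chromosome were of many kinds. Hnrnpk, an RNA-binding protein, went from 1063 ± 470.2 to 367 ± 60.1 CPM (log2 fold change -1.50 ± 0.27, adjusted p = 0.0021), Dek, a chromatin protein, from 620.1 ± 343 to 122 ± 36 CPM (log2 fold change -2.28 ± 0.34, adjusted p = 8.2e-04), and the lysosomal protease gene Ctsl from 543 ± 25 to 98.9 ± 11 CPM (log2 fold change -2.46 ± 0.14, adjusted p = 5.5e-06). These 3 were named after their values were seen. Pik3r1, a subunit of phosphoinositide 3-kinase, was an exception, from 195 ± 62 to 345 ± 38 CPM. Copy number was not measured in these data, and its part in the shift was not tested.

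**Figure D3:**
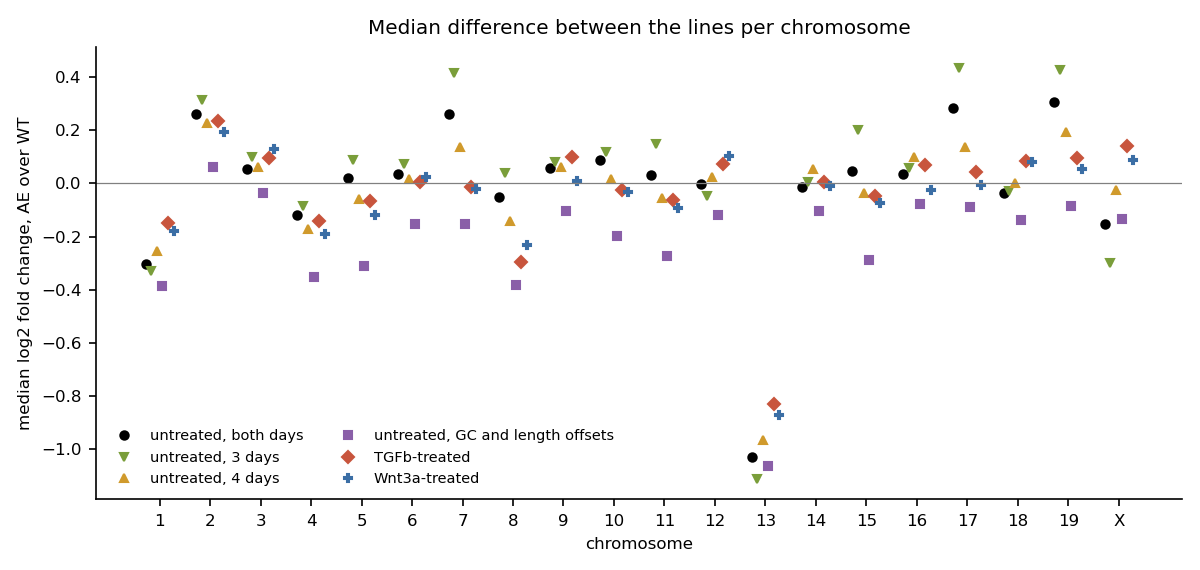
Median log2 fold change of AE over WT for the genes of each chromosome, in the untreated libraries over both days, at each day alone and with offsets for GC content and length, and in the TGFb-treated and Wnt3a-treated libraries. Chromosome 13 lies between -1.11 and -0.83 in all 6, and every other median lies between -0.39 and 0.44.

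Around Pygo2 itself, 63 genes within 1 Mb on chromosome 3 were tested and 19 passed, 17 as higher and 2 as lower in AE. The 2 lower ones were Efna1, an ephrin ligand, from 47.0 ± 16 to 20.1 ± 5.0 CPM, and Tpm3, a tropomyosin, from 379.6 ± 58 to 116 ± 4.4 CPM (log2 fold change -1.70 ± 0.14, adjusted p = 3.0e-05). The largest rise was that of Trim46, from 0.318 ± 0.17 to 13.9 ± 4.5 CPM (log2 fold change 5.45 ± 0.43, adjusted p = 2.8e-05), followed by Thbs3, a thrombospondin, from 0.508 ± 0.39 to 5.61 ± 1.5 CPM, and Syt11, from 1.47 ± 0.28 to 14.4 ± 2.7 CPM. The share that passed, 19 of 63, was below the 48.6% of all genes.

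The difference between the lines was then compared across the 2 days. An interaction of line and day passed for 0 of 12648 genes in edgeR (235 at an unadjusted p under 0.05) and for 0 in limma (342 unadjusted), with a lowest adjusted p of 0.898 in edgeR. Csn3 had a log2 fold change of 14.33 at 3 days and 12.53 at 4 days, and Areg -5.47 and -9.29, both fitted with few counts in 1 line. The 4-day libraries alone gave 7729 calls (61.1%) and the 3-day libraries alone 1959 (15.5%). In the 3-day libraries alone 1333 of the calls were higher in AE and 626 lower, a higher share of 68.0%. With 2 libraries a group at each day, a difference between the days was not detectable at this spread, which does not show that the days were alike.

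The 8 treated libraries, which share no sample with the untreated ones, gave a second measurement of the lines. In them 4466 of the same genes passed (35.3%), 2301 higher in AE (18.2%) and 2165 lower (17.1%). Both comparisons called 3407 genes in the same direction, which is 55.4% of the untreated and 76.3% of the treated calls, and 66 in opposite directions. Of 1910 untreated calls above 4-fold, 1600 (83.8%) passed in the same direction in treated cells, and 1578 had a smaller fold there. Since these genes were chosen for a large untreated fold, smaller folds in other libraries follow in part from the choice. That count therefore does not show an effect of treatment. Values for treated cells are means of 2 libraries, scaled with TMM factors over all 16 libraries. Untreated values keep the factors of the 8 untreated libraries. Kit had means of 0 CPM in WT and 29.7 CPM in AE with TGFb, and 0.0220 and 68.9 CPM with Wnt3a. Col9a2 had means of 0.0223 CPM in WT and 174 CPM in AE with TGFb, and 0 and 22.96 CPM with Wnt3a, and it passed in treated cells (adjusted p = 5.0e-07). Igf1, at 0 in untreated WT, had means of 50.6 CPM in WT and 604 CPM in AE with TGFb, and 0.529 and 43.4 CPM with Wnt3a. Csn3 had means of 1.98 CPM in WT and 15.4 CPM in AE with TGFb, and 0.0439 and 8.47 CPM with Wnt3a. These AE means were below each untreated AE library of the same day, as given above. Vim had means of 641 CPM in WT and 699 CPM in AE with TGFb, and 61.3 and 275 CPM with Wnt3a, and the lines did not differ past the threshold in treated cells (adjusted p = 0.081). Axin2 had means of 0.348 CPM in WT and 9.71 CPM in AE with TGFb, and 97.2 and 76.3 CPM with Wnt3a, so the WT libraries reached the level of AE with Wnt3a and not with TGFb.

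Among the opposite calls, Igfbp4, a binding protein of insulin-like growth factors, was lower in untreated AE, from 12.1 ± 2.7 to 3.35 ± 2.4 CPM (log2 fold change -1.91 ± 0.45, adjusted p = 0.0086), and in treated cells its log2 fold change was 2.03 (adjusted p = 7.0e-05). Bcl11b, a lineage factor of basal and skin epithelium, had -2.84 and 2.97 (adjusted p = 7.0e-04 and 1.5e-04). Etv5, an ETS factor downstream of ERK, had 0.55 and -1.11 (adjusted p = 0.012 and 0.0010). These pairs set untreated beside treated values, and whether the difference itself passes a test was not computed for them.

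**Figure D4:**
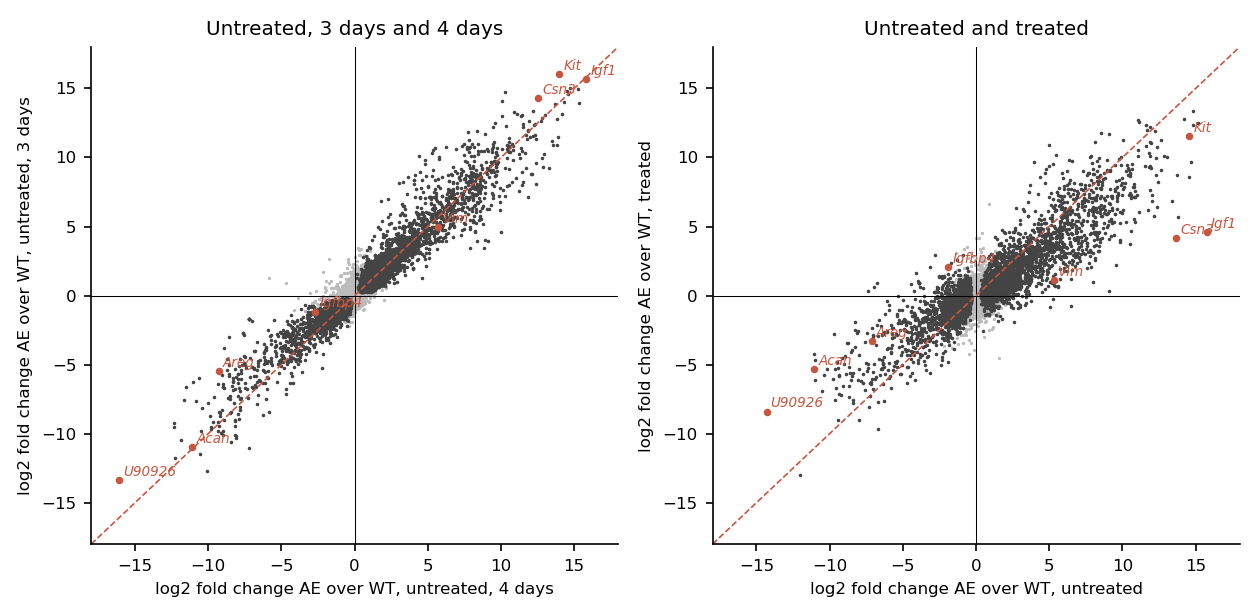
Log2 fold change of AE over WT for each of 12648 genes, at 3 days against 4 days in untreated libraries (left) and in treated against untreated libraries (right). Dark points passed in the untreated libraries over both days, grey points did not, the dashed line marks equal values, and fitted values of genes with 0 counts in a line depend on the model's prior count. The dark points on the left were chosen from the libraries plotted there, and those on the right by the untreated values on the horizontal axis. On the right most lie closer to 0 than the dashed line, which this choice produces in part.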

How the data were processed

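RNA-seq counts per gene, as deposited by the authors, were read for 16 libraries. Alignment used STAR to mm10, per the submitters' processing notes, while versions, counting tool and strand setting were not given in the sources available. The values are whole numbers of unequal totals and were treated as counts although the deposit's name speaks of CPM. RefSeq names on GRCm38.p6 matched 19613 of 19665 rows, and 52 stayed unnamed. The 12648 genes that reached 1 CPM in 2 or more of the 8 untreated libraries were fitted with TMM scaling and edgeR 4.0.16 quasi-likelihood tests (R 4.3.3, prior df 3.28, biological coefficient of variation 0.28) on day and line, with Benjamini-Hochberg adjustment over all of them. The treated fit used the treatment and line, and a further fit the line-by-day interaction. Alternatives used DESeq2 1.42.0, limma 3.58.1 on log2(CPM + 1) and offsets for GC content and transcript length, known for 12205 genes. The test was tried on simulated data.

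The comparison and the gene lists were chosen with earlier results of these data known, and lists are described by counts and medians with no set test. 39 list entries had no row. Named genes were Pygo2, the 12 highest and 12 lowest folds among called genes with no overlap and a mean of at least 10 CPM, the 6 largest rises and falls in CPM, up to 4 called members of a list by fold and 2 uncalled by CPM, genes within 1 Mb of Pygo2, and the 5 highest genes off in each line. The text gives a subset, and some genes are not reported here. Chosen after their values were seen were Axin2, Bcl11b, Ccnd1, Cd34, Cd44, Cd68, Col17a1, Col1a1, Col1a2, Col4a1, Col4a6, Col7a1, Col8a1, Ctsl, Dek, Dpt, Etv5, Fabp4, Gapdh, Hmgcs1, Hnrnpk, Idi1, Igfbp4, Lgr5, Lyz2, Mki67, Nkd2, Pdgfra, Pdgfrb, Pecam1, Pik3r1, Prom1, Ptgs2, Sox9, Thy1, Vcan and Vegfa. Library totals give the precision, and intervals and bounds cover counting error only. Pooled days share an estimate of the spread.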

Additional observations from a re-analysis of the deposited data

Results flagged for a closer look

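In 40 of 335 sets of 4 libraries of a line, over the genes named in the text, 1 library lay so far from the others that its gap to the nearest, divided by the whole range, was above Dixon's critical value at 95%. Chance alone gives this in about 1 in 20 sets, and genes are not independent, so 1 library can mark many of them. AE 3-day replicate 1 stood high in Areg at 12.9 CPM (the others 0.578 to 0.670), Col1a1 at 171 CPM (the others 36.2 to 44.5), Col6a3 at 221 CPM (the others 55.9 to 79.6), Dsg3 at 4.11 CPM (the others 0.186 to 0.248) and Dusp4 at 21.8 CPM (the others 10.1 to 11.1). AE 3-day replicate 1 was also high in Epgn at 48.1 CPM (the others 2.93 to 9.87), Fosl1 at 3.08 CPM (the others 0.370 to 0.670), Fzd5 at 106 CPM (the others 32.9 to 38.4), H2-D1 at 219.5 CPM (the others 91.6 to 111) and Hbegf at 28.1 CPM (the others 5.20 to 7.19). AE 3-day replicate 1 was further high in Igfbp4 at 6.94 CPM (the others 2.04 to 2.31), Inhba at 11.1 CPM (the others 1.197 to 2.04), Krt18 at 734 CPM (the others 225 to 249), Nqo1 at 9.02 CPM (the others 6.80 to 7.06) and Pdgfrb at 35.7 CPM (the others 10.7 to 12.998). AE 3-day replicate 1 was high as well in Ptgs2 at 54.4 CPM (the others 11.8 to 13.9) and S100a4 at 33.6 CPM (the others 15.2 to 18.3). AE 3-day replicate 1 stood low in Etv5 at 64.9 CPM (the others 85.0 to 88.2) and Pdgfra at 97.6 CPM (the others 155 to 165). WT 3-day replicate 1 stood high in Il1a at 24.2 CPM (the others 6.64 to 9.12), Ddx5 at 4949.6 CPM (the others 2251 to 2519), Dek at 1131 CPM (the others 398 to 480.3), Foxq1 at 20.8 CPM (the others 13.3 to 14.3) and Fzd4 at 49.6 CPM (the others 25.3 to 29.1). WT 3-day replicate 1 was also high in Hnrnpk at 1762 CPM (the others 762 to 907), Sox9 at 435 CPM (the others 269.7 to 273), Tcf7l2 at 39.3 CPM (the others 23.3 to 25.96), Tead1 at 313 CPM (the others 169.7 to 192) and Xist at 5092 CPM (the others 1994 to 2494). WT 3-day replicate 1 was further high in Yap1 at 294 CPM (the others 199 to 214). AE 3-day replicate 2 stood high in Cnmd at 1336 CPM (the others 1111 to 1139.8). AE 3-day replicate 2 stood low in Ctsd at 5513 CPM (the others 8678 to 9229), Kdm5c at 257 CPM (the others 313 to 317) and Ldha at 853 CPM (the others 1203 to 1273). WT 3-day replicate 2 stood low in Cdh2 at 19.8 CPM (the others 70.5 to 76.8) and Tle4 at 0.702 CPM (the others 1.87 to 2.06). WT 4-day replicate 1 stood high in Ctsl at 580.0 CPM (the others 527 to 533) and Mcm6 at 474 CPM (the others 451 to 454). WT 4-day replicate 2 stood high in Vegfa at 175 CPM (the others 108 to 119). WT 4-day replicate 2 stood low in Grhl2 at 158 CPM (the others 171 to 173). The part of the GC-linked difference between the 3-day replicates in these values was not tested.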

How the results depend on the processing

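The untreated count of 6146 genes stayed within 1.5 times under DESeq2 (6823), other scalings, other filters, limma, the model of all 16 libraries and the 4-day libraries alone (7729). It was 1959 (1333 higher, 626 lower) in the 3-day libraries alone and 2431 (1620 higher, 811 lower) in a test against a 2-fold change. GC and length offsets gave 5128 lower genes. Wnt3a-treated libraries alone gave 1857 (1208 higher, 649 lower) in place of 4466, and TGFb-treated ones 6388. Leaving out 1 library gave 4641 to 6613 untreated calls (2522 to 3483 higher, 2053 to 3130 lower), 3342 to 5422 treated calls (1886 to 2737 higher, 1456 to 2727 lower) and 0 to 0 calls by day. The replicate block gave 4602 calls (2523 higher, 2079 lower) and the crossed replicate block 7625. Same-numbered libraries deviated in opposite directions, with correlations across genes of -0.60 and -0.46, so the numbers do not pair the lines. Under the block S phase genes passed as lower in 14 cases and mitosis genes in 13. Of 252 single genes, 173 kept their direction and their side of the threshold in every setting. The others lost or gained a call or changed sign in at least 1, 53 of them losing it in the 3-day libraries alone and 41 against a 2-fold change. Genes that changed sign had not passed over both days, with log2 fold changes of Pygo2 0.0093 (upper-quartile scaling), then Pygo2 0.016 (total-count scaling), then Pygo2 0.18, Cdh1 -0.067, H2-D1 0.43, H2-K1 0.28, Hspa5 -0.022, Itgb4 0.16, Krt18 0.67, Krt8 0.64, Ldha 0.10, Lif 0.75, Runx2 -0.14 and Yap1 -0.074 (3-day libraries alone), then Cdh1 -0.63, Cldn7 -0.40, Erbb3 -0.25, Esrp1 -0.17, Itgb1 0.15, Runx2 -0.58, Tead1 -0.039, Wnt7b -1.09 and Yap1 -0.58 (GC content and length offsets), then Runx2 -0.020 and Yap1 -0.014 (all 16 libraries in 1 model), then Wnt7b -0.0069 (limma on log2(CPM + 1)), then Wnt7b -0.31 (4-day libraries alone), then Wnt7b -0.026 (replicate block), then Wnt7b -0.0088 (crossed replicate block). Leaving out 1 library also turned the sign of 12 genes, whose values ranged as Pygo2 -0.12 to 0.025, Cldn7 -0.0017 to 0.40, H2-D1 -0.57 to 0.0016, H2-K1 -0.27 to 0.028, Hspa5 -0.029 to 0.42, Itgb1 -0.25 to 0.077, Krt8 -0.98 to 0.0089, Ldha -0.29 to 0.050, Lif -1.38 to 0.061, Runx2 -0.066 to 0.16, Wnt7b -0.38 to 0.23, Yap1 -0.054 to 0.13. The cause of these changes was not tested. In simulated counts for the untreated comparison over 12459 genes, 100 genes were changed 2-fold and 100 were changed 4-fold. These were drawn from genes with higher counts, and all others were left unchanged. The test found 28% of the genes changed 2-fold and 89% of those changed 4-fold, and 6 of its 123 calls were false. In the data 48.6% of genes passed, so these rates do not carry over to the 6146 calls. Smaller changes were not simulated.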
